A study of Mus musculus with 24 samples.

Results

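The 37 genes of the mouse mitochondrial chromosome were taken as every row with chromosome MT in the deposited tables, 37 of 47372 rows. They comprise the 2 ribosomal RNAs of the mitochondrial ribosome, 13 protein-coding genes and 22 transfer RNAs. All 37 had the same start and end in the GRCm38 annotation at hand (GENCODE M21), with 28 genes on the forward strand and 9 on the reverse strand. The rule used the position alone and no measured value.

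Their RNA was sequenced in bone-marrow-derived macrophages of C57BL/6J mice, 8 to 12 weeks old. The study gave 6 mice, 3 with intact liver X receptors (LXR-positive) and 3 lacking both LXRα and LXRβ, labelled DKO for double knockout, and 24 libraries in 8 groups of 3. The 4 treatments, given to cells from every mouse, were vehicle, KLA at 100 ng/ml (a lipid A ligand of the innate receptor TLR4), GW3965 (a synthetic LXR agonist) at 1 µM, or AcLDL (acetylated low-density lipoprotein, a scavenger receptor ligand that loads cells with cholesterol) at 50 µg/ml. The first 3 treatments started on day 5 and lasted 17 h, and no source used here states how long AcLDL was given. All cells grew in medium with 20% serum and 30% L929-conditioned medium, renewed on day 4. The replicate numbers name mice within a genotype and do not pair mice across genotypes.

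The mitochondrial chromosome is transcribed from both strands as long precursors, which are cut apart mainly at the transfer RNAs that lie between the other genes. Its proteins are subunits of respiratory complexes I, III and IV and of ATP synthase, while the polymerase, the processing enzymes and the ribosomal proteins that serve them come from nuclear genes. Stretches of mitochondrial DNA have also been copied into nuclear chromosomes in the course of evolution, and such copies can match the mitochondrial gene base for base.

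Libraries held 6448579 to 17348717 reads in LXR-positive and 9705391 to 27189081 reads in DKO cells, so genotype and depth cannot be told apart. Values are the authors' normalized counts, that is, reads divided by 1 factor per library. All 10 macrophage markers listed averaged over 10 normalized counts, and their sum ran from 150875 to 450401. The summed neutrophil markers ran from 2241 to 11785 (Ly6g averaged under 10), stromal markers from 319 to 12036 (Lum under 10), lymphocyte markers from 94.3 to 2097 and dendritic markers from 110 to 200.4. The LXR-positive vehicle library of mouse 2, which was also the deepest of its genotype, stood apart from its group in many members, as described with the ribosomal RNAs.

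Nuclear copies decide which mitochondrial rows can be read alone. A block on GRCm38 chromosome 1, minus strand, holds annotated pseudogenes that repeat a run of mitochondrial genes. The ends of 4 mitochondrial genes are shown beside their copies. Over the whole copy as annotated the 2 sequences are identical, and they differ only in annotated length. The capitals mark the bases of the mitochondrial gene beyond the annotated end of its copy. Apart from mt-Nd4l, whether the nuclear block goes on with the same bases was not tested. The last bases of mt-Nd4l lie within the start of mt-Nd4, which the next copy in the block, Gm28439, matches. Sequences are those of the annotated GENCODE M21 transcripts, 5′ to 3′ along each gene.

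mt-Co2: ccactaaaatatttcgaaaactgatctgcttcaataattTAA
Gm28661: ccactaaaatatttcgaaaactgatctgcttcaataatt
mt-Atp6: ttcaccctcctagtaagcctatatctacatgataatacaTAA
Gm10925: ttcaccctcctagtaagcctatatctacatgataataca
mt-Co3: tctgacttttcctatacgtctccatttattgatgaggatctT
Gm28437: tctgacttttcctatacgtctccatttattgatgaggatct
mt-Nd4l: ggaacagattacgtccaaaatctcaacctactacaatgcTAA
Gm10222: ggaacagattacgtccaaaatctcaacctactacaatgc

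Gm28661 (chr1:24614885-24615565) matched mt-Co2 (chrMT:7013-7696) at 681 of 681 bases. Gm10925 (chr1:24613974-24614651) matched mt-Atp6 (chrMT:7927-8607) at 678 of 678, and Gm28437 (chr1:24613189-24613971) matched mt-Co3 (chrMT:8607-9390) at 783 of 783. Gm10222 (chr1:24612407-24612700) matched mt-Nd4l (chrMT:9877-10173) at 294 of 294. In the same block Gm28438 matched mt-Nd3 at 344 of 345 bases, with the single substitution T3C counted from the first base of mt-Nd3, and Gm28439 matched the first 876 bases of mt-Nd4 without a difference. A read of 50 bases could therefore come from either place over 99.5% to 100% of the windows of mt-Co2, mt-Atp6 and mt-Co3. The same held for 98.0% of windows in mt-Nd3, 98.8% in mt-Nd4l, 62.2% in mt-Nd4 and 51.1% in mt-Co1. No window of a transfer RNA was shared with an annotated nuclear transcript. Nuclear sequence outside annotated transcripts was not searched, so copies of transfer RNAs there could not be seen.

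The counts of these pairs were split in 2 different ways. In mt-Co2, which encodes a complex IV subunit, the mitochondrial row held 0.0366% to 6.64% of the counts of the pair with Gm28661, with a median of 0.936% over the 24 libraries. In mt-Atp6, an ATP synthase subunit, it held 1.82% to 21.1% (median 6.43%), and in mt-Co3, a complex IV subunit, 23.0% to 53.4% (median 41.3%). In mt-Nd3, mt-Nd4l and mt-Nd4, which encode complex I subunits, it held at least 99.5% in every library. Identity alone does not separate these cases, since Gm10222 matches as fully as Gm28661. Which rule of the counting made the split was not tested.

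The mt-Co2 row is the clearest case. It stood at 2.38, 520 and 265 normalized counts in the 3 LXR-positive vehicle libraries and at 117, 130 and 101 in the DKO ones. Over all 24 libraries it ran from 2.38 to 520, a 218-fold range, while the sum with its copies ran from 6470 to 11647, a 1.80-fold range. On the log2(value + 1) scale, the standard deviation within groups was 1.96 for the mt-Co2 row and 0.269 for the sum, 1.05 and 0.299 for mt-Atp6, and 0.353 and 0.263 for mt-Co3. The values of these 3 rows are therefore given below with their copies, and which place the reads came from cannot be told apart.

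**Figure D1:**
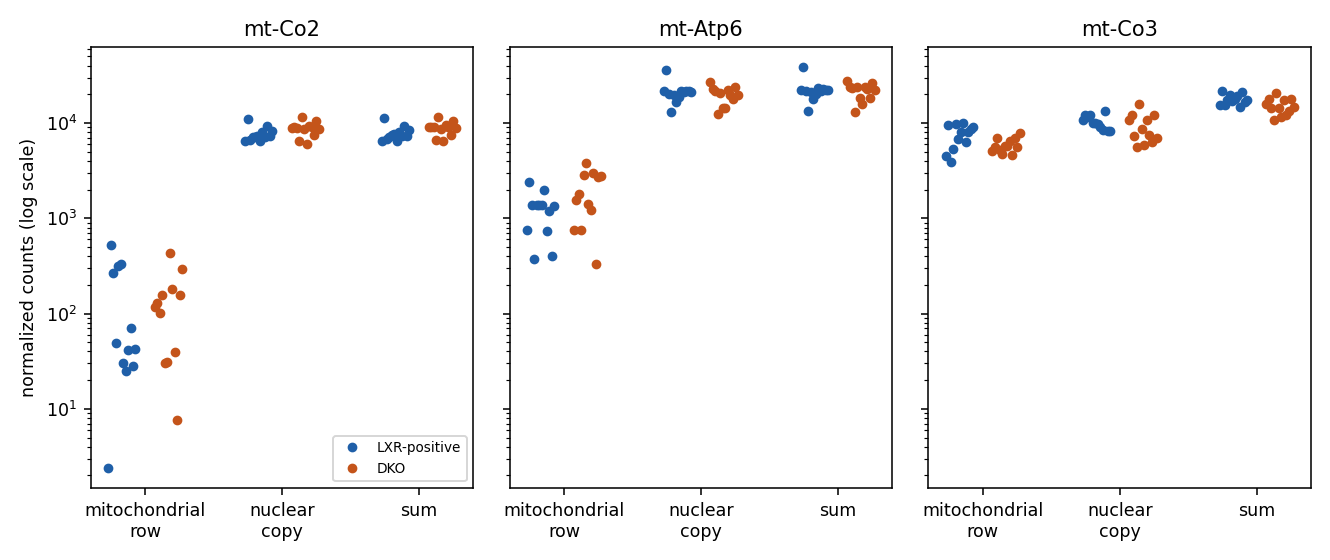
Normalized counts (log scale) of mt-Co2, mt-Atp6 and mt-Co3, of their nuclear copies and of the sum, with 1 point per library, LXR-positive in blue and DKO in orange. The mt-Co2 row spreads from 2.38 to 520, while its sum lies between 6470 and 11647.

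The 2 ribosomal RNAs made up 90.2% of the normalized counts on the mitochondrial chromosome, the 13 protein-coding rows 9.75% and the 22 transfer RNA rows 0.0572%. Here and below, such shares count the mitochondrial rows alone and leave out the counts held by the nuclear copies. mt-Rnr2 (chrMT:1094-2675), the RNA of the large ribosomal subunit, averaged 1495150 normalized counts, or 11.7% of a library. mt-Rnr1 (chrMT:70-1024), the RNA of the small subunit, averaged 197815. Per kilobase of gene, the level of mt-Rnr2 was 945102 and that of mt-Rnr1 207136 normalized counts. The protein-coding rows lay well below both.

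Among the protein-coding rows, mt-Co1 (chrMT:5328-6872), the catalytic subunit of complex IV, was the highest, with 63791 normalized counts per kilobase. It held 41.6% to 67.1% of the counts on the protein-coding mitochondrial rows of a library, whose sum averaged 183044. That sum leaves out Gm28661, Gm10925 and Gm28437, which averaged 8164, 20368 and 9742. With them in the sum the part of mt-Co1 would be lower. mt-Atp8, an ATP synthase subunit whose gene overlaps the start of mt-Atp6, followed with 42217 per kilobase. Summed with the copies, mt-Atp6 reached 32223 per kilobase, mt-Co3 20978 and mt-Co2 12180, against 2313, 8551 and 207 for the mitochondrial rows alone. The complex I subunits spanned 4751 (mt-Nd3) to 17253 (mt-Nd6) per kilobase. Between them lay mt-Nd5 at 11348, mt-Nd1 at 11169, mt-Nd4 at 9274, mt-Nd4l at 6498 and mt-Nd2 at 5353. mt-Cytb, the complex III subunit, stood at 4539 per kilobase. The neighbours mt-Nd5 and mt-Nd1 did not differ beyond the spread of the libraries, whose counts ranged 3.05-fold for mt-Nd5 and 2.81-fold for mt-Nd1. mt-Nd6 (chrMT:13552-14070) is the only protein-coding gene annotated on the reverse strand, and since no source used here states the strand setting of the counting, its reads cannot be told apart from antisense reads of the forward transcript.

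Transfer RNA rows were low, with means from 2.92 to 198 normalized counts. The 5 highest were mt-Tn (asparagine) at 198, mt-Tg (glycine) at 194, mt-Ta (alanine) at 106, mt-Tp (proline) at 98.4 and mt-Tw (tryptophan) at 86.5. The 8 transfer RNAs annotated on the reverse strand had a median of 67.0 normalized counts and the 14 on the forward strand 11.3. The reverse-strand rows held 55.9% of the transfer RNA counts. Like those of mt-Nd6, their reads cannot here or below be told apart from antisense reads of the forward transcript. How far these rows follow the amount of mature transfer RNA was not tested.

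The share of the library that came from the mitochondrial chromosome was lower with KLA than with vehicle in every mouse. In LXR-positive cells the share was 14.3%, 19.3% and 16.5% with vehicle (mice 1, 2 and 3) and 8.99%, 15.5% and 11.3% with KLA. In DKO cells it was 16.6%, 16.6% and 14.02% with vehicle and 8.76%, 12.6% and 9.15% with KLA. The groups did not overlap in DKO cells but did in LXR-positive cells, where KLA in mouse 2 lay above vehicle in mouse 1. Group means were 16.7 ± 2.51% and 11.9 ± 3.32% (SD, n = 3) in LXR-positive and 15.7 ± 1.49% and 10.2 ± 2.10% (SD, n = 3) in DKO cells. A sum over the members was given no p-value.

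Most of that difference lay in the ribosomal RNAs. KLA minus vehicle within a mouse was -7.21 to -3.60 percentage points for them, below 0 in 6 of 6 mice. The protein-coding share was 1.24%, 1.93% and 1.25% with vehicle and 1.03%, 1.73% and 1.20% with KLA in LXR-positive cells. In DKO cells it was 1.67%, 1.60% and 1.53% with vehicle and 1.08%, 1.64% and 1.24% with KLA. It was lower in 5 of 6 mice, and the groups overlapped in both genotypes.

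**Figure D2:**
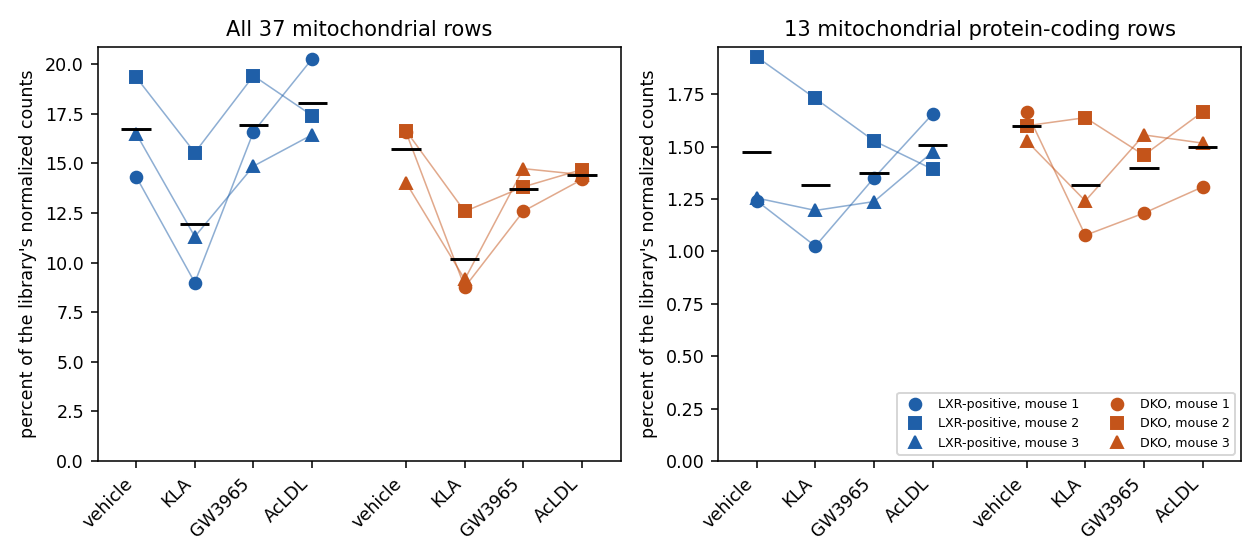
Percent of each library's normalized counts on all 37 mitochondrial rows (left) and on the 13 protein-coding rows (right), by treatment, with 1 point per mouse, lines joining the libraries of a mouse and bars for group means. The total with KLA lies below vehicle in all 6 mice, with group means of 11.9% against 16.7% in LXR-positive and 10.2% against 15.7% in DKO cells.

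With GW3965 the total share was 16.6%, 19.4% and 14.9% in LXR-positive and 12.6%, 13.8% and 14.7% in DKO cells. With AcLDL it was 20.3%, 17.4% and 16.4% in LXR-positive and 14.2%, 14.7% and 14.4% in DKO cells. Each of these 4 groups overlapped its vehicle group. Averaged over the 4 treatments, the share was 15.0%, 17.9% and 14.8% in the 3 LXR-positive mice and 13.03%, 14.4% and 13.1% in the 3 DKO mice. Every LXR-positive mouse lay above every DKO mouse, with means of 15.9 ± 1.74% and 13.5 ± 0.794% (SD, n = 3). The gap lay in the summed ribosomal RNAs, at 14.5 ± 1.55% and 12.1 ± 0.676% of a library (SD, n = 3). Of the 2, only mt-Rnr2 was lower in DKO mice, at a mean of 1251780 normalized counts against 1738520. mt-Rnr1 was higher in all DKO mice, at 228390 against 167240. The protein-coding share was 1.42 ± 0.197% in LXR-positive and 1.45 ± 0.141% in DKO mice (SD, n = 3), and the mice overlapped.

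Gene by gene, no mitochondrial row passed the test for KLA within either genotype. The test was limma on log2(value + 1) over all genes, called at a Benjamini-Hochberg adjusted p under 0.05. In LXR-positive cells 0 of 32 rows tested were called, while 28.6% of all genes were called (16.2% higher and 12.4% lower). In DKO cells 0 of 32 were called, against 25.2% of all genes (14% higher and 11.1% lower). At an unadjusted p under 0.05 there were 3 rows in LXR-positive and 7 in DKO cells. The share of all genes at that looser threshold is not given here, so no excess is read from these counts. edgeR on the recovered reads called 1 row lower in each genotype (11.9% and 12.8% of all genes were lower) and DESeq2 3 and 2 (13.4% and 13.7%). The median log2 difference of the 32 rows was -0.45 in LXR-positive and -0.53 in DKO cells, beside 0.00 for all genes in both. The LXR-positive median rested largely on single libraries. It was -0.08 without vehicle mouse 2, -0.19 without KLA mouse 1 and -0.28 without KLA mouse 3. The DKO median was -0.29 without KLA mouse 1.

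The difference in KLA response between genotypes was tested as well, and 0 of 32 rows passed in a comparison where 0.0689% of all genes did. The smallest limma adjusted p of a member there was 0.863, 0 rows had an unadjusted p under 0.05, and edgeR and DESeq2 called 0. In the authors' deposited table the smallest adjusted p of a mitochondrial row for that difference was 0.73. The 2 genotypes were therefore averaged, a step added after the data were seen.

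Averaged over both genotypes, 4 of 32 rows were lower with KLA and 0 higher. Of all genes 40.8% were called in that comparison, 18.6% lower and 22.2% higher, so the share of the members called lower, 4 of 32, was below the background. Without the LXR-positive vehicle library of mouse 2 the count was 3 of 30 lower and 1 higher, the transfer RNA mt-Tq (0.78, limma adjusted p = 0.0250). The 4 rows were mt-Rnr1, mt-Cytb, and the transfer RNAs mt-Ty (tyrosine, chrMT:5260-5326) and mt-Tt (threonine, chrMT:15289-15355).

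mt-Rnr1 stood at 142816, 376303 and 174870 normalized counts with vehicle and 88924, 136636 and 116556 with KLA in LXR-positive cells. In DKO cells it stood at 319364, 250399 and 239303 with vehicle and 126410, 234227 and 167893 with KLA. It was lower with KLA in 6 of 6 mice and the groups did not overlap in either genotype, as was the case, lower, for 18% (LXR-positive) and 21.5% (DKO) of all genes. Its log2 difference averaged over genotypes was -0.78 ± 0.24 (SE, limma adjusted p = 0.0211). Without the LXR-positive vehicle library of mouse 2 it was -0.57 (adjusted p = 0.032).

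mt-Cytb (chrMT:14145-15288) stood at 4117, 9452 and 4704 with vehicle and 2766, 3622 and 3518 with KLA in LXR-positive cells. The DKO libraries gave 7681, 6612 and 6426 with vehicle and 3040, 6326 and 4331 with KLA. The groups did not overlap in either genotype, and the log2 difference was -0.72 ± 0.21 (SE, limma adjusted p = 0.0163).

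The neighbouring gene of mt-Cytb along the chromosome is mt-Tt, whose log2 difference was -0.95 ± 0.31 (SE, limma adjusted p = 0.0286). It stood at 32.1, 90.3 and 26.9 with vehicle and 17.0, 32.9 and 22.8 with KLA in LXR-positive cells, where the groups overlapped. Values in DKO cells were 52.2, 25.5 and 31.6 with vehicle and 20.6, 13.9 and 14.7 with KLA, without overlap.

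mt-Ty, a reverse-strand transfer RNA, stood at 89.2, 84.8 and 67.2 with vehicle and 48.3, 49.4 and 57.7 with KLA in LXR-positive cells. DKO cells had 67.2, 48.1 and 52.7 with vehicle and 27.7, 34.2 and 44.7 with KLA. No KLA value reached a vehicle value in either genotype, and the log2 difference was -0.64 ± 0.16 (SE, limma adjusted p = 0.0068).

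Because libraries of one mouse share their source, the mouse was also used as a replicate block, and more rows then passed. In LXR-positive cells mt-Rnr1 (log2 difference -0.91, limma adjusted p = 0.0293) and mt-Cytb (-0.79, adjusted p = 0.0416) fell. In DKO cells the transfer RNAs mt-Tr (arginine, -1.04, adjusted p = 0.0205), mt-Tt (-1.06, adjusted p = 0.0292) and mt-Ti (isoleucine, -0.89, adjusted p = 0.0417) fell. With the block 13.5% of all genes were called lower in LXR-positive and 12% in DKO cells. Averaged over genotypes with the block, 11 of 32 rows fell and 0 rose, while 19.7% of all genes fell. These added mt-Rnr2, mt-Nd2, mt-Nd4, mt-Nd4l, mt-Atp8, mt-Tr and mt-Tp to the 4 above.

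mt-Rnr2 stood at 1517277, 1972842 and 1787069 with vehicle and 968130, 1769772 and 1241629 with KLA in LXR-positive cells. In DKO cells it stood at 1529551, 1592210 and 1291237 with vehicle and 841346, 1189172 and 879457 with KLA. It was lower in 6 of 6 mice. The averaged log2 difference was -0.53 ± 0.20 (SE, limma adjusted p = 0.0526), or adjusted p = 0.0232 with the mouse block.

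The complex IV subunits gave differences near 0. mt-Co1 stood at 96369, 114965 and 94118 with vehicle and 89549, 160274 and 95413 with KLA in LXR-positive cells. The DKO libraries gave 92541, 98692 and 83083 with vehicle and 78290, 107982 and 80002 with KLA. Its averaged log2 difference was 0.04 ± 0.15 (SE, limma adjusted p = 0.864). Summed with their copies, mt-Co2 gave -0.08 ± 0.15 (adjusted p = 0.693) and mt-Co3 -0.03 ± 0.15 (adjusted p = 0.906). Whether the members differed from each other in response was not tested.

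mt-Atp6 depended on its copy. The mitochondrial row alone gave an averaged log2 difference of 0.02 ± 0.47 (SE, limma adjusted p = 0.980), and the sum with Gm10925 gave -0.56 ± 0.18 (adjusted p = 0.0275). The complex I rows gave averaged log2 differences of -0.61 (mt-Nd4l), -0.52 (mt-Nd4), -0.49 (mt-Nd2), -0.46 (mt-Nd6), -0.42 (mt-Nd5), -0.37 (mt-Nd1) and -0.16 (mt-Nd3), with adjusted p from 0.0550 to 0.554. mt-Atp8 gave -0.62 ± 0.25 (adjusted p = 0.0641).

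**Figure D3:**
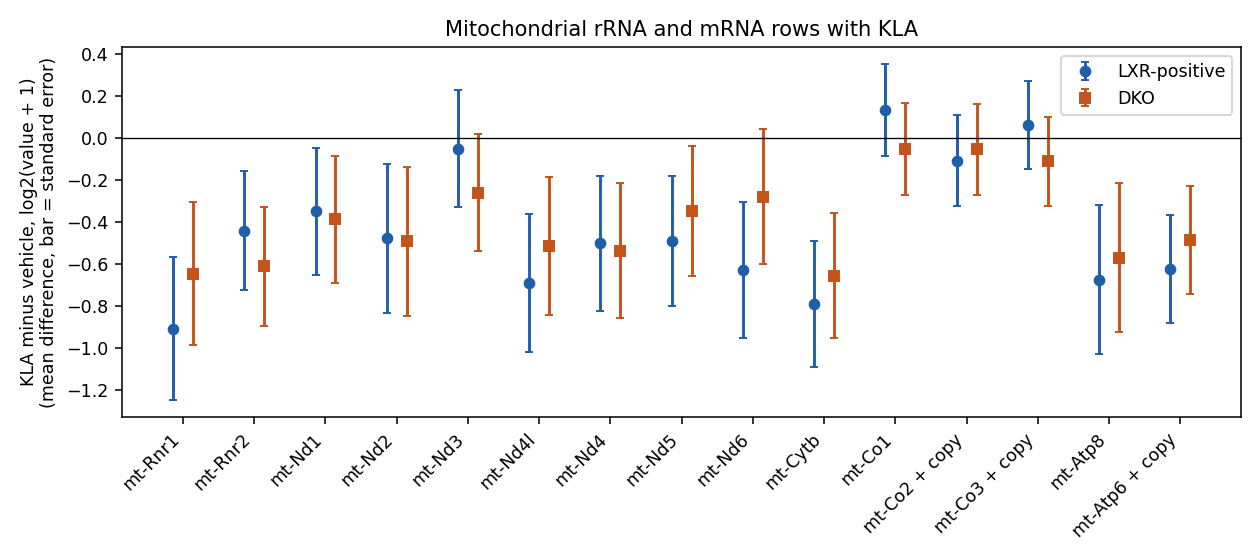
Difference KLA minus vehicle on the log2(value + 1) scale (mean, bars are standard errors from limma) for the 2 ribosomal RNA and 13 protein-coding rows, LXR-positive in blue and DKO in orange, with mt-Co2, mt-Co3 and mt-Atp6 summed with their nuclear copies. mt-Rnr1 lies lowest in LXR-positive cells at -0.91, and mt-Co1 lies at 0.13.

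Scaling bears on these values, because the members make up a large part of each library. When libraries were rescaled to equal counts off the mitochondrial chromosome, the median of all genes moved to -0.14 in LXR-positive and -0.17 in DKO cells. In that scaling limma called 3 of 32 rows lower in LXR-positive, 1 in DKO and 10 averaged over genotypes, and 0 higher in each. Of all genes it called 17.4%, 17.2% and 27.9% lower and 12.1%, 9.58% and 15.6% higher in the same order, a larger share lower than in the authors' scaling. mt-Rnr1 then gave -1.04 in LXR-positive cells. Cell type markers moved with KLA too. The summed macrophage markers were 241371 to 313938 with vehicle and 377937 to 450401 with KLA in LXR-positive cells. The summed lymphocyte markers were 1381 to 1610 and 94.3 to 206, and the neutrophil markers 4593 to 4751 and 2241 to 2670. Of 11 macrophage marker rows tested, 4 rose and 3 fell in LXR-positive and 6 rose and 3 fell in DKO cells. In the same order, 7 and 4 of 9 neutrophil and 3 and 2 of 4 lymphocyte markers fell, and 0 rose. Of 9 stromal markers 1 and 0 rose, of 6 dendritic markers 1 and 1, and 0 fell. Of all genes 16.2% and 14% were called higher and 12.4% and 11.1% lower. The part of these markers' cell types in the member values was not tested. In these bulk samples fewer cells of a type and less RNA per cell cannot be told apart.

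The nuclear genes that serve the chromosome were counted by list for KLA. Of 9 tested genes of mitochondrial transcription, 1 rose and 0 fell in each genotype, beside 16.2% and 14% of all genes called higher. The gene that rose was Tfb1m, a methyltransferase that modifies the small ribosomal RNA (log2 difference 1.23 in LXR-positive and 1.04 in DKO cells). The RNA polymerase gene Polrmt gave -0.04 and 0.38, the packaging and initiation factor Tfam -0.21 and -0.12, the initiation factor Tfb2m 0.08 and -0.09 and the elongation factor Tefm 0.27 and 0.14, with limma adjusted p from 0.260 to 0.913. The list's median log2 difference was 0.08 in LXR-positive and -0.07 in DKO cells.

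Genes of mitochondrial RNA processing and decay rose in part. Of 20 tested, 9 rose and 0 fell in LXR-positive cells and 7 rose and 0 fell in DKO cells, with medians of 0.47 and 0.30 beside 0.00 for all genes. Hsd17b10, a subunit of mitochondrial RNase P that cuts precursors at the start of transfer RNAs, rose by 1.31 ± 0.16 (SE, limma adjusted p = 9.3e-05) and 0.90 ± 0.16 (adjusted p = 0.00158). Rexo2, which degrades short RNA fragments, rose by 1.10 and 0.77, and Slirp, a partner of Lrpprc in keeping mitochondrial mRNA stable, by 0.89 and 0.88. Fastkd5, which acts in processing, rose by 1.04 in LXR-positive cells. The RNAs of the genes for mitochondrial ribosomal proteins showed the same sign. Of 78 tested, 31 rose and 0 fell in LXR-positive cells and 25 rose and 0 fell in DKO cells (medians 0.46 and 0.46). Mrpl52 rose by 1.20 and 1.57 and Mrps28 by 1.12 and 1.19. The background for higher calls was 16.2% and 14% of all genes.

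The other lists held fewer calls or calls in both directions. Beside them, 16.2% and 14% of all genes were called higher and 12.4% and 11.1% lower in LXR-positive and DKO cells. Of 28 translation factors 3 rose in LXR-positive and 4 in DKO cells and 0 fell, with the elongation factor Tufm at 0.74 and 0.88. These 2 counts lay below or near the share of all genes called higher. Of 19 RNA modification genes 4 and 2 rose and 0 fell, with Trmt5, a transfer RNA methyltransferase, at 0.91 and 0.54. Of 16 genes of mitochondrial DNA maintenance 1 rose and 3 fell in LXR-positive cells and 3 rose and 1 fell in DKO cells. The pyrimidine nucleotide carrier Slc25a33 rose by 1.73 and 1.41. Of 9 biogenesis regulators 3 rose and 1 fell in LXR-positive and 2 rose and 2 fell in DKO cells. The coactivator Ppargc1b rose by 1.01 and 1.64 and the nuclear receptor Esrra by 0.99 and 0.93, and the deacetylase Sirt1 fell by 0.48 and 0.66. Of 10 mitophagy genes 4 rose and 2 fell, and 5 rose and 2 fell. Bnip3, a mitophagy receptor, rose by 1.77 and 1.82, while the kinase Pink1 fell by 1.61 and 1.05 and the ubiquitin ligase Park2 by 1.00 and 0.96. None of the genes in these lists passed limma's test of the difference in KLA response between genotypes.

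GW3965 and AcLDL gave no call among the members. With GW3965, 0 of 30 rows passed limma in LXR-positive cells (0.267% of all genes did) and 0 of 30 in DKO cells (0.00621%). At an unadjusted p under 0.05 there were 0 and 7 rows. The percentages of all genes in this paragraph are at the adjusted threshold, so no excess is read from the unadjusted counts. With AcLDL, 0 of 32 passed in LXR-positive (0.225%) and 0 of 32 in DKO cells (0.125%), with 2 and 3 rows at an unadjusted p under 0.05. The differences in response between genotypes gave 0 of 30 for GW3965 (0.118%) and 0 of 32 for AcLDL (0.025%), with 1 and 3 rows at an unadjusted p under 0.05. edgeR and DESeq2 called 0 rows in each of these 6 comparisons. In the authors' deposited tables the smallest adjusted p of a mitochondrial row for that difference was 0.837 with GW3965 and 1.0 with AcLDL. Averaged over genotypes, 0 of 30 passed with GW3965 (0.13% of all genes, 6 rows at an unadjusted p under 0.05) and 0 of 32 with AcLDL (0.849%, 1 row).

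The largest differences between genotypes lay in transfer RNAs and in the balance of the 2 ribosomal RNAs. With vehicle alone 0 of 30 rows passed limma (0.316% of all genes did), and edgeR and DESeq2 called 0. At the looser threshold of an unadjusted p under 0.05 there were 3 rows, with no share of all genes given for it. When the 4 libraries of each mouse were averaged and the 3 mice of each genotype compared, a step added after the data were seen, 9 of 35 rows were called. Of these 2 were higher and 7 lower in DKO cells, while 7.9% of all genes were higher and 8.51% lower in that comparison. On reads summed per mouse, edgeR called 5 rows (11.6% of all genes) and DESeq2 11 (18.5%). Scaled to counts off the mitochondrial chromosome limma also called 11, 4 higher and 7 lower, with 9.62% of all genes higher and 5.93% lower. By mouse means without any test, 5 of 35 rows were higher and 14 lower in all DKO mice than in all LXR-positive mice, beside 18.1% and 19.8% of all genes.

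mt-Tg was higher in DKO mice. It is the transfer RNA for glycine (chrMT:9391-9458), between mt-Co3 and mt-Nd3 on the forward strand, shown here whole because its genotype difference was the largest among the members.

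mt-Tg: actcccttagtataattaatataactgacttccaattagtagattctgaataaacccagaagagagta

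In LXR-positive cells mt-Tg stood at 94.0, 87.9 and 40.3 normalized counts with vehicle, 193, 27.0 and 54.6 with KLA, 69.1, 37.4 and 118 with GW3965 and 82.9, 68.3 and 45.3 with AcLDL. Values in DKO cells were 83.7, 192 and 224 with vehicle, 275, 320 and 366 with KLA, 476, 438 and 377 with GW3965 and 262, 514 and 209 with AcLDL. The mouse means were 76.5 ± 29.2 in LXR-positive and 311 ± 48.3 in DKO mice (SD, n = 3). All DKO mice lay above all LXR-positive mice, while single libraries overlapped. The log2 difference was 2.07 ± 0.27 (SE, limma adjusted p = 0.0060). The genes on either side gave -0.31 (mt-Co3) and -0.10 (mt-Nd3), and neither passed. mt-Tg rested on 18 to 717 reads per library. The nuclear sequence between Gm28437 and Gm28438, the copies of mt-Co3 and mt-Nd3, was not searched for a copy of mt-Tg.

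mt-Tn went the other way. This transfer RNA for asparagine (chrMT:5089-5159, reverse strand) stood at 207, 247 and 276 with vehicle, 159, 520 and 290 with KLA, 226, 396 and 224 with GW3965 and 281, 346 and 307 with AcLDL in LXR-positive cells. DKO cells had 191, 152 and 104 with vehicle, 91.0, 82.3 and 89.4 with KLA, 67.0, 76.7 and 130 with GW3965, and 81.2, 63.9 and 155 with AcLDL. Only the DKO vehicle library of mouse 1 reached into the LXR-positive range. The log2 difference was -1.45 ± 0.20 (SE, limma adjusted p = 0.0066).

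Its neighbours were lower as well. The cluster mt-Tw, mt-Ta, mt-Tn, mt-Tc and mt-Ty lies between mt-Nd2 and mt-Co1, with mt-Tw on the forward strand and the other 4 on the reverse strand. All 5 were called lower in DKO mice. The reads of the 4 reverse-strand rows cannot be told apart from antisense reads of the forward transcript. mt-Tn was called in 13 of 13 alternatives, mt-Ta and mt-Tc in 10 and mt-Tw and mt-Ty in 8, and all 5 kept their direction in the 13. mt-Tw (tryptophan, chrMT:4950-5016) averaged 118 ± 47.6 in LXR-positive and 55.2 ± 13.9 in DKO mice (SD, n = 3; log2 difference -1.16, limma adjusted p = 0.0354). mt-Ta averaged 136 ± 27.0 and 76.6 ± 10.3 (-0.86, adjusted p = 0.0233), mt-Tc (cysteine) 111 ± 42.3 and 46.5 ± 5.33 (-1.19, adjusted p = 0.0220), and mt-Ty 67.0 ± 4.08 and 43.2 ± 5.21 (-0.62, adjusted p = 0.0269).

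Outside the cluster 2 forward-strand transfer RNAs were lower, mt-Ti called in 10 and mt-Tr in 8 of the 13 alternatives. mt-Ti (chrMT:3706-3774) averaged 61.9 ± 16.2 in LXR-positive and 30.9 ± 5.65 in DKO mice (SD, n = 3; -1.07, limma adjusted p = 0.0177). mt-Tr (chrMT:9808-9875) averaged 70.6 ± 29.0 and 32.1 ± 2.09 (-1.12, adjusted p = 0.0336). mt-Tv (valine), mt-Tq (glutamine) and mt-Te (glutamate) gave 1.58, 0.73 and 0.93 with adjusted p of 0.0513, 0.0536 and 0.0629. The summed transfer RNA share was 0.00910 ± 0.00208% and 0.00768 ± 0.000216% of a library (SD, n = 3), so the rows differed in opposite directions within a total that overlapped between genotypes.

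**Figure D4:**
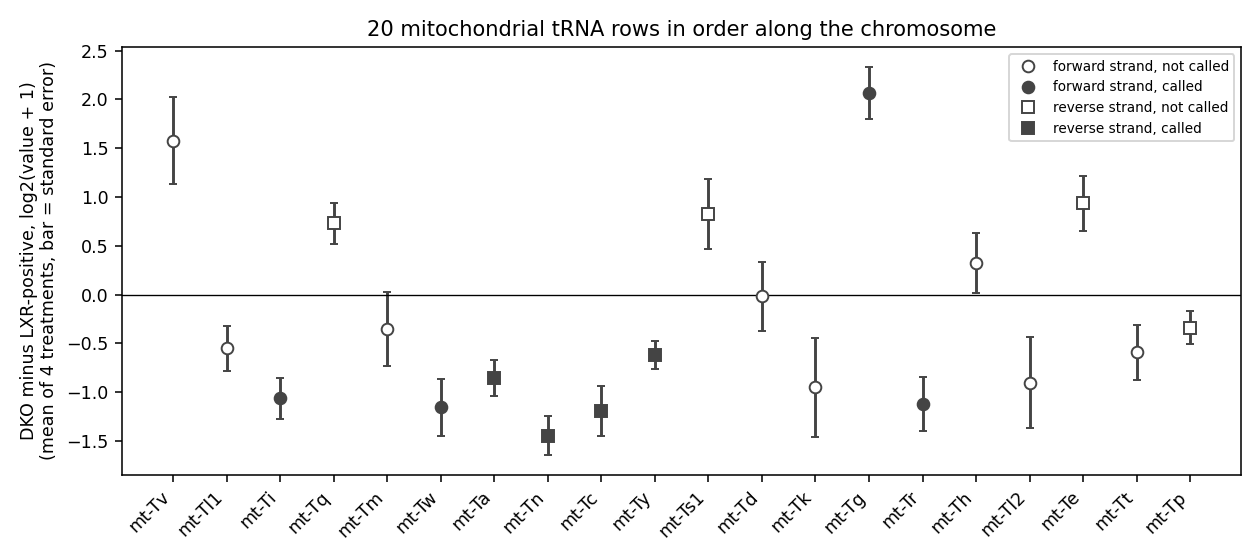
Difference DKO minus LXR-positive on the log2(value + 1) scale (mean of 4 treatments, 3 mice against 3, bars are standard errors from limma) for the 20 transfer RNA rows tested, in order along the chromosome, with squares for the reverse strand and filled symbols for rows called. mt-Tg lies highest at 2.07, and the cluster from mt-Tw to mt-Ty lies between -0.62 and -1.45.

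Among the protein-coding rows limma called mt-Nd1 (chrMT:2751-3707), a complex I subunit, higher in DKO mice. It averaged 8904 ± 1255 in LXR-positive and 12474 ± 1851 in DKO mice (SD, n = 3; log2 difference 0.51 ± 0.14, limma adjusted p = 0.0446). The other complex I rows gave -0.10 to 0.47, mt-Cytb 0.35, mt-Atp8 0.46, mt-Co1 -0.37, and the sums with copies 0.17 (mt-Co2), -0.26 (mt-Co3) and -0.04 (mt-Atp6), none of them called by limma. The mt-Nd1 call depended on the test. It was made in 6 of 13 alternatives, with adjusted p up to 0.156, and by neither edgeR nor DESeq2 on reads summed per mouse. DESeq2 there called mt-Co1 lower instead (-0.35, adjusted p = 0.0270).

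The ribosomal RNAs differed in balance. mt-Rnr1 gave 0.50 ± 0.17 (SE, limma adjusted p = 0.0869) and mt-Rnr2 -0.46 ± 0.23 (adjusted p = 0.206), neither called by limma. DESeq2 on reads summed per mouse called mt-Rnr2 lower in DKO mice (-0.44, adjusted p = 0.00101), and edgeR did not. The ratio of mt-Rnr2 to mt-Rnr1 counts was 10.6, 5.24 and 10.2 with vehicle in LXR-positive cells and 4.79, 6.36 and 5.40 in DKO cells. Over all treatments it lay between 9.49 and 14.5 in 11 of the 12 LXR-positive libraries and between 3.94 and 6.66 in the 12 DKO libraries. The exception was the LXR-positive vehicle library of mouse 2. The share of mt-Co1 in the protein-coding counts was 61.2%, 44.2% and 58.2% with vehicle in LXR-positive and 44.7%, 50.3% and 44.4% in DKO cells. Over all treatments the genotypes overlapped in that share also without that library, at 56.1% to 67.1% in the other 11 LXR-positive libraries and 41.6% to 57.7% in the 12 DKO libraries.

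**Figure D5:**
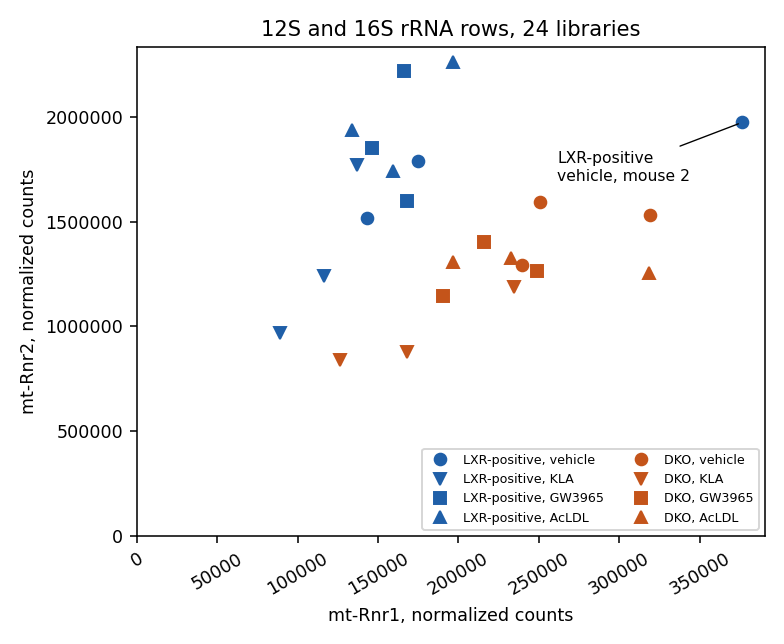
mt-Rnr1 against mt-Rnr2 in normalized counts, with 1 point per library, LXR-positive in blue, DKO in orange and a symbol per treatment. The DKO libraries have ratios of 3.94 to 6.66 and 11 LXR-positive libraries 9.49 to 14.5, while the LXR-positive vehicle library of mouse 2 has 5.24.

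In that library mt-Rnr1 was 2.37 times the mean of its 2 group mates, mt-Nd1 2.30 times, mt-Atp8 2.60 times and mt-Cytb 2.14 times, while mt-Rnr2 was 1.19 times and mt-Co1 1.21 times. Its mt-Tg (87.9) and mt-Tn (247) stayed within the range of the other LXR-positive libraries. The KLA differences in LXR-positive cells rest on it in part: without it limma called 1 row, higher, mt-Co3 (0.75, adjusted p = 0.0322), and mt-Co3 alone shares its counts with Gm28437. Without LXR-positive mouse 2 the genotype comparison called 8 rows, with mt-Tg at 1.86 (adjusted p = 0.016) and mt-Tn at -1.25 (adjusted p = 0.015). Without DKO mouse 2 it called 2 rows and without LXR-positive mouse 3 it called 3, with mt-Tg and mt-Tn among them each time.

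Other RNAs differed between genotypes alongside the transfer RNAs. Rmrp, the RNA of the nuclear-encoded RNase MRP, averaged 629 ± 194 in LXR-positive and 2338 ± 224 in DKO mice (SD, n = 3; log2 difference 1.93, limma adjusted p = 0.0049). AY036118, one of the rows listed as resembling cytoplasmic ribosomal RNA, averaged 10429 ± 2802 and 110229 ± 29140 (3.49, adjusted p = 0.0011), and Rn18s-rs5 19863 ± 3030 and 63065 ± 28960 (1.42, adjusted p = 0.0241). In the same list Gm26917 averaged 219031 ± 20462 and 219651 ± 21723, and Gm42418 25850 ± 1335 and 28188 ± 3667. The mice of the genotypes overlapped in both of these rows. Rpph1, the RNA of nuclear RNase P, averaged 5402 ± 764 and 6851 ± 859 (0.36, adjusted p = 0.102). Of 9 neutrophil markers tested 5 were higher and 0 lower in DKO mice, and of 9 stromal markers 0 passed, with a median log2 difference of 2.21. Of 11 macrophage marker rows 1 was higher and 3 lower, of 5 lymphocyte markers 1 was higher and 0 lower, and of 6 dendritic markers 0 passed. Of all genes 7.9% were higher and 8.51% lower. The DKO vehicle library of mouse 1, the lowest DKO library in mt-Tg (83.7), was also the lowest in AY036118 (19130) and in Rmrp (993). The part of these RNAs, of other cells or of depth in the transfer RNA differences was not tested.

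Among nuclear genes for mitochondrial RNA processing and decay, 4 of 20 were lower and 0 higher in DKO mice in the same fit. They were Rexo2 (-0.75, limma adjusted p = 0.0057), Ptcd2 (-0.41), the phosphodiesterase Pde12 (-0.38) and the poly(A) polymerase Mtpap (-0.30). The list's median was -0.17 beside 0.04 for all genes, of which 8.51% were called lower and 7.9% higher. Of 19 RNA modification genes 0 passed limma. In the transcription list Tfb2m was lower (-0.29, adjusted p = 0.0297) and was the only one of 10. In the translation list Lars2, the leucyl transfer RNA synthetase, was higher by 1.70 (adjusted p = 0.0056). In the same list 3 of 28 were lower, including the ribosome recycling factor Mrrf (-0.94), a count near the share of all genes called lower.

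Members also varied together within groups. As a description over the 24 libraries, with group means removed, deviations of mt-Rnr1, mt-Atp8, mt-Cytb and 6 mt-Nd rows correlated with each other at r from 0.876 to 0.977 over 36 pairs (median 0.937). That set left out mt-Nd3, which correlated with its rows at r from 0.841 to 0.923. mt-Rnr2 and mt-Co1 correlated at r = 0.92 with each other and at 0.488 to 0.743 with the first set. The LXR-positive vehicle library of mouse 2 is among the 24, and r without it was not computed. The 5 nuclear genes whose log2 levels followed the summed protein-coding level most closely over the 24 libraries, of 17039 ranked, were RP23-306P12.3 (r = 0.765), Gm11011 (0.700), Mbd2 (0.695), Stambp (0.694) and Rpl35 (0.683). All values of a library share its depth and its scaling factor.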

How the data were processed

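Total RNA libraries, stranded and sequenced as single 50 bp reads, were made from 500 ng of RNA, per the labels' protocols. Each of the 3 deposited tables holds 1 treatment and the vehicle libraries. Tools were kallisto and DESeq2 and the build GRCm38, per the submitters' processing notes. No source used here states versions, annotation or strand setting. The deposited signal is a normalized count per gene and library, and 100% of values came back as whole reads within 0.01 read. The authors' deposited log2 fold changes of the interaction were not used, and their deposited adjusted p-values stand only beside the tests made here. The authors' deposited score was not used.

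Genes with at least 10 normalized counts in 3 of 12 libraries were tested with limma 3.58.1 (R 4.3.3) on log2(value + 1), which understates changes of low genes. Each fit held vehicle and 1 treatment in both genotypes (4 group means) and was adjusted by Benjamini-Hochberg over all genes, with calls at 0.05. The genotype comparison over 4 treatments used the mean log2 value of each mouse. edgeR 4.0.16 and DESeq2 1.42.0 on recovered reads, other scalings, filters and pseudocounts, summed or omitted nuclear copies, the mouse block and left-out libraries were alternatives. Shared sequence was searched as windows of 50 bases in GENCODE M21 transcripts. The test was run on simulated data first.

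The design text gives 6 mice and 4 treatments, so equal numbers within a genotype mark 1 mouse. Their libraries deviated from the group means together, at a median r of 0.265 (36 pairs, -0.005 to 0.506, 35 over 0.1, 10732 genes). With 3 mice per group, depth and mice limit precision. The members and lists were chosen with earlier results of these data known. All protein-coding and ribosomal RNA rows are named, the 5 highest transfer RNAs and any called, up to 4 called genes per nuclear list by size of change, and Polrmt, Tfam, Tfb2m and Tefm throughout.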

Additional observations from a re-analysis of the deposited data

Results flagged for a closer look

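In mt-Tk, the transfer RNA for lysine, AcLDL minus vehicle within mice was positive in all 3 LXR-positive mice (mean difference 7.64 normalized counts) and negative in all 3 DKO mice (mean difference -5.7), which is why it is listed here. The difference in response between genotypes was -1.67 ± 0.93 on the log2(value + 1) scale (SE, limma adjusted p = 1.00, unadjusted p = 0.0977). The row rested on 3 to 36 reads per library.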

How the results depend on the processing

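For KLA in LXR-positive cells 0 members passed limma, against 1 with edgeR, 3 with DESeq2, 2 with all 24 libraries in the fit, 3 scaled to counts off the mitochondrial chromosome and 2 with the replicate block, all lower. Leaving out a library gave 0 to 2. For KLA in DKO cells the counts were 0, 1, 2, 0, 1 and 3 in the same order, with 4 when only the groups compared were fitted and 0 to 1 with a library left out. Averaged over genotypes the 4 became 7, 10, 11, 10 and 11 in the same order, and 2 to 11 with a library left out: 2 without LXR-positive KLA mouse 1 or DKO vehicle mouse 1, and 11 without LXR-positive KLA mouse 2. mt-Ty and mt-Cytb were called lower in 21 of 21 alternatives, mt-Rnr1 in 18 and mt-Tt in 14. mt-Atp6 reversed to -0.56 when summed with its copy. In the genotype comparison over treatments the 9 became 5 with edgeR, 11 with DESeq2 (adding mt-Tv, mt-Rnr2 and mt-Co1 and losing mt-Nd1), 11 scaled to counts off the mitochondrial chromosome, 10 with a pseudocount of 8 and 2 to 8 with a mouse left out. mt-Tg (adjusted p 1.19e-11 to 0.0262) and mt-Tn (1.21e-09 to 0.0281) were called in 13 of 13 alternatives. With AcLDL, leaving out a library gave 0 to 1 in LXR-positive cells and over both genotypes, the 1 being mt-Co3 without LXR-positive vehicle mouse 2. The cause of these changes was not tested.

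Without ribosomal RNA rows the share differed by -0.265 (KLA, LXR-positive), -0.400 (KLA, DKO), -0.237 (GW3965, DKO) and -0.123 (AcLDL, DKO) percentage points, and as protein-coding rows over all protein-coding rows by -0.307, -0.464, -0.271 and -0.144, because most of the share is ribosomal RNA. The differences over all rows were -4.78, -5.58, -2.03 and -1.31. The replicate block changed no other call. Transfer RNA rows rest on few reads, which limits what can be seen there.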
